A study of Rattus norvegicus with 6 samples.

Results

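The genes described here encode calprotectin and the late granule proteins of neutrophils, together with receptors that mark mature neutrophils, in rat subchondral bone. They were chosen by name as S100a8, S100a9, Camp, Ngp, Lcn2, Ltf, Lyz2, Csf3r and Cxcr2, and each of the 9 had 1 row among the 22050 annotated rat genes of the deposited table. RNA was sequenced in 6 libraries of subchondral bone, the bone beneath the cartilage of the knee joint, whose titles are S23, S21, S20, S13, S12 and S10. The series was set up to compare rats at low temperature with rats at normal temperature, but the labels used here give no temperature, strain, age or sex for any library, so the libraries stay ungrouped and cold is not compared with normal temperature. The sources used here do not say whether each library is from its own animal, and the values below are those of single libraries, with their range and median and without a p-value.

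Neutrophils pack their antimicrobial proteins into granules in a fixed order while they mature in the marrow. Primary granules, filled with myeloperoxidase, serine proteases and defensins, are made first, secondary granules with lactoferrin, cathelicidin and lipocalin follow, and the cytosolic complex of S100A8 and S100A9 and the receptors for G-CSF and for CXC chemokines accumulate as the cell matures. Calprotectin binds calcium, zinc and manganese, starves microbes of metal and signals through TLR4 and RAGE, and it is used as a blood and stool marker of neutrophil inflammation. The transcription factor C/EBP epsilon is required for secondary granule genes in mice and humans, and PU.1 acts in the whole myeloid lineage.

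Total counts were 39990624 to 59200981 per library. The share of counts in the 4 named globin rows (Hbb and 3 Hba genes) was 10.4% in S23 and 18.9% to 27.6% in the other libraries. The median expressed gene (annotated, with a median of at least 1 FPKM, 11625 genes) lay 0.31 log2 units under its own median over the libraries in S10 and 0.14 above it in S12, with smaller shifts in the other 4 libraries. Of osteoblast genes, 10 of 10 reached a median of 1 FPKM, as did 11625 of the 22050 annotated genes. That count alone does not identify the tissue. FPKM divide a gene's fragments by its length and by the size of the library.

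The starts of 4 granule genes are shown here because Ngp and Lcn2 kept the steadiest ratio of any pair of members, and because Camp, Ngp and Ltf lie on the same chromosome while Ltf was almost unread. The sequences are RefSeq promoters of build GRCr8, from 250 bases before to 50 bases after the annotated start, 5′ to 3′ on the strand of the gene. Ngp is at chr8:119272355-119272654 (plus strand), Lcn2 at chr3:36081731-36082030 (minus strand), Camp at chr8:118721949-118722248 (minus strand) and Ltf at chr8:119878094-119878393 (plus strand). Capitals mark matches to TTGCNNAA, a form of the C/EBP motif, and to GAGGAA, a core of PU.1 sites, each searched on both strands. In Lcn2 the first run of capitals is the C/EBP form and the second the PU.1 core.
Ngp: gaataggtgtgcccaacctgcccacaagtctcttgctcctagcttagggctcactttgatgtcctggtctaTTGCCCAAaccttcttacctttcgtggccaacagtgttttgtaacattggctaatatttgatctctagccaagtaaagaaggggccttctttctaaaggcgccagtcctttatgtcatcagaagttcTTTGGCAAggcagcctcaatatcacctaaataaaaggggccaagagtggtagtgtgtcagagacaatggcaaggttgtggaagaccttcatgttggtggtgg
Lcn2: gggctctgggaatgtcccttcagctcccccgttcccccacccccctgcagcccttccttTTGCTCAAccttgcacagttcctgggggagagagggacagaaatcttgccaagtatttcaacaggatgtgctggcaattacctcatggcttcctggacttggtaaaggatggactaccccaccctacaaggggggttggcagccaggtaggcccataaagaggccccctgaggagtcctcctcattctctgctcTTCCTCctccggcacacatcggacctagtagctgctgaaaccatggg
Camp: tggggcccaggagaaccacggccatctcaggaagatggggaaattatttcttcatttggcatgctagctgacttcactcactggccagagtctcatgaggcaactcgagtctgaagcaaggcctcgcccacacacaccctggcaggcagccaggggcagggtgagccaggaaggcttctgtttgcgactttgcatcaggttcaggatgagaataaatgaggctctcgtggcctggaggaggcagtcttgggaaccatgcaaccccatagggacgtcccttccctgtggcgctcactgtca
Ltf: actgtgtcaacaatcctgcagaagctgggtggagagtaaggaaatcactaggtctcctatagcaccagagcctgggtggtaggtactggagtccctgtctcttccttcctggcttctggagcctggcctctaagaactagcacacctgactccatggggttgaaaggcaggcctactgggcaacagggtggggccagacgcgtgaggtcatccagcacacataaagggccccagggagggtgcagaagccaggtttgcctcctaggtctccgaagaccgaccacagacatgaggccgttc
The Ngp promoter held 2 C/EBP matches, which begin 179 and 52 bases upstream of the start, and the Lcn2 promoter held 1, which begins 191 bases upstream. Promoters of 8 of the 9 members were matched by symbol, and 3 of them (Ngp, Lcn2 and Lyz2) held the C/EBP form, against 10.6% of 33469 rat promoters of the same length. The PU.1 core was found in 4 of the 8 (S100a9, Lcn2, Csf3r and Lyz2), against 27.6% of all promoters. No match overlapped another in these promoters. The windows of Camp, Ltf and Cxcr2 held neither set of letters. A match in a window this short describes letters and is not evidence of binding.

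The calprotectin genes had the highest median FPKM of all neutrophil genes listed here. S100a9 (ENSRNOG00000011483), which encodes the larger subunit, had 37587 FPKM in S23, 22762 in S21, 8517 in S20, 19692 in S13, 11015 in S12 and 19029 in S10. S100a8 (ENSRNOG00000011557), which encodes its partner, had 25798 FPKM in S23, 13039 in S21, 4299 in S20, 13968 in S13, 5676 in S12 and 16939 in S10. Both were highest in S23 and lowest in S20, with S12 next lowest, and they ranked 6 and 7 among all annotated genes by median FPKM. Their highest level was 4.41 times the lowest for S100a9 and 6.0 times for S100a8, or 2.67 and 3.94 times without S23. Together the pair took 3.30% of all counts in S23 (95% exact binomial interval, Clopper-Pearson, 3.296% to 3.306%) and 0.670% in S20 (0.668% to 0.673%). These intervals cover counting error only.

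The transcripts of the subunits did not keep a fixed proportion, and protein was not measured. The ratio of S100a8 to S100a9, per length, was 0.686 in S23, 0.573 in S21, 0.505 in S20, 0.709 in S13, 0.515 in S12 and 0.890 in S10. S100a9 was thus the higher of the pair in 6 of 6 libraries, and S10 stood closest to equal levels. A scaling factor applied to a whole library cancels in such a ratio, and at these depths (72323 counts or more for either gene) counting error is small beside the 1.76-fold span. Without S10 the span was 1.41-fold.

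Other S100 genes were read beside the calprotectin genes, since several are made in many cell types. Of 12 on the list, 9 reached a median of 1 FPKM, and their highest medians were those of S100a11 (566 FPKM), S100a4 (202 FPKM), S100a10 (195 FPKM) and S100a6 (184 FPKM). Each of these 4 was highest in S23 and lowest in S20 in the deposited FPKM, although S100a4, S100a10 and S100a6 were highest in S10 under TMM and median-ratio scaling, S100a4 and S100a10 also when scaled without the globin rows, and S100a11 was lowest in S10 after scaling to a common sum. S100a6 ranged from 59.9 FPKM in S20 to 301 FPKM in S23. S100b, S100a1, S100a3 and S100a16 were highest in S12 or S10 instead, except that S100a3 was highest in S23 in CPM and after scaling to a common sum.

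**Figure D1:**
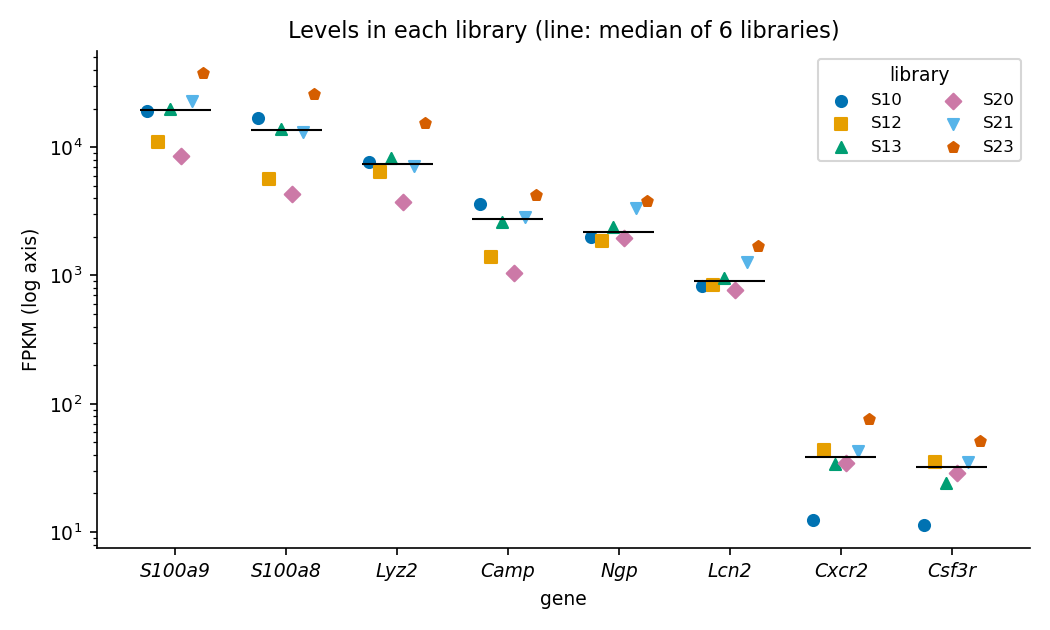
Level of 8 of the 9 genes in FPKM on a log axis, one point per library, with a line at the median of the 6 libraries; Ltf is not drawn because it had a median of 0.0230 FPKM. In the deposited values S23 (pentagons) is the highest point of every gene drawn, a place that Camp gives to S10 under TMM or median-ratio scaling, and both Camp and Ngp give up when FPKM are scaled without the globin rows; S10 (circles) is the lowest point of Cxcr2 and Csf3r.

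The secondary granule genes other than Ltf were also among the strongest transcripts. Camp (ENSRNOG00000020733), the cathelicidin precursor whose cleaved tail is an antimicrobial peptide, had 4244 FPKM in S23, 2833 in S21, 1046 in S20, 2630 in S13, 1392 in S12 and 3621 in S10. S23 and S10 were high and S20 and S12 low, the same 2 low libraries as for calprotectin. The lead of S23 over S10 was 1.17-fold, and the highest Camp value lay in S10 under TMM scaling, median-ratio scaling and scaling without the globin rows.

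Ngp (ENSRNOG00000024330), which encodes neutrophilic granule protein, a cathelicidin relative, had 3809 FPKM in S23, 3341 in S21, 1966 in S20, 2402 in S13, 1867 in S12 and 1978 in S10. Lcn2 (ENSRNOG00000013973), which encodes lipocalin 2, a protein that binds bacterial iron carriers, had 1704 FPKM in S23, 1271 in S21, 775 in S20, 956 in S13, 839 in S12 and 826 in S10. For both genes S23 and S21 stood above the other 4 libraries, which lay close together. The ratio of Ngp to Lcn2 was 2.24 in S23, 2.63 in S21, 2.54 in S20, 2.51 in S13, 2.22 in S12 and 2.39 in S10, a 1.18-fold span and the narrowest of the 28 pairs among the 8 members above 1 FPKM. Camp and Ngp, by contrast, exchanged places, with Camp higher in S10, S13 and S23 and Ngp higher in S12, S20 and S21. Their ratio was 1.83 in S10 and 0.532 in S20, and spanned 3.44-fold, or 2.09-fold without S10.

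Ltf (ENSRNOG00000031779), which encodes lactoferrin, an iron-binding protein that defines secondary granules in mice and humans, was close to absent. It had 5 counts in S21, 4 each in S23, S20 and S13, 1 in S10 and 0 in S12, or at most 0.0301 FPKM. The 0 counts of S12 allow for up to 3, a level of 0.0679 CPM (counts scaled to library size), so a transcript at that level could not be told from none. No library stood apart, and no fold change is given for so few counts. In the RefSeq gene order the protein-coding neighbours of Ltf are Rtp3, with a median of 2.34 FPKM, and Ccrl2, with 5.50 FPKM. The table also lists 8550 loci outside the annotation, with at most 2.92% of all counts in a library and no gene name, and whether any of them holds lactoferrin reads was not tested.

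Lyz2 (ENSRNOG00000005825), the lysozyme of neutrophils, monocytes and macrophages, had 15399 FPKM in S23, 7135 in S21, 3769 in S20, 8160 in S13, 6345 in S12 and 7664 in S10. S23 was high, S20 low and the other 4 libraries lay close together. The lead of S23 over the next library, S13, was 1.89-fold, the widest of the members. The related lysozyme gene Lyc2 could share reads with it, so the Lyz2 level is uncertain to that extent. Lyc2 had 30.0 to 199 FPKM, which was 0.468% to 2.78% of the Lyz2 level in the same library.

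The receptors were far lower and had another profile. Csf3r (ENSRNOG00000008759), the receptor for the neutrophil growth factor G-CSF, had 51.7 FPKM in S23, 35.2 in S21, 29.0 in S20, 24.4 in S13, 35.1 in S12 and 11.3 in S10. Cxcr2 (ENSRNOG00000014269), the chemokine receptor that draws mature neutrophils out of the marrow, had 76.6 FPKM in S23, 43.1 in S21, 34.4 in S20, 33.7 in S13, 43.3 in S12 and 12.5 in S10. In both, S10 was the low library and S23 the high one, while S12 and S20, where calprotectin was low, were near the middle. Cxcr2 exceeded Csf3r in 6 of 6 libraries, and the ratio of Csf3r to Cxcr2 spanned 1.34-fold, the second narrowest of the 28 pairs. Without S10 the range on the log2(FPKM + 1) scale was 1.06 for Csf3r and 1.16 for Cxcr2, against 2.10 and 2.53 with it.

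By median FPKM the order ran S100a9, S100a8, Lyz2, Camp, Ngp, Lcn2, Cxcr2, Csf3r and Ltf. Of the neighbours in that order, Ngp and Lcn2, Lcn2 and Cxcr2, and Csf3r and Ltf had ranges that did not overlap. S100a8 exceeded Lyz2 in 5 of 6 libraries, S12 being the exception. The other neighbours had overlapping ranges, although S100a9 exceeded S100a8, Lyz2 exceeded Camp and Cxcr2 exceeded Csf3r in each library. The 9 genes together took 6.37% of all counts in S23, 3.56% in S21, 3.40% in S10, 3.37% in S13, 2.11% in S12 and 1.58% in S20.

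Against all expressed genes the spread was wide, but that background was not matched for level. The median level was 2190 FPKM for the members and 9.11 FPKM for expressed genes, and log2(FPKM + 1) understates folds of low genes. A range of at least 1 on the log2(FPKM + 1) scale was found in 8 of the 9 members, against 36.6% of the 11625 expressed genes, and a range of at least 2 in 6 of the 9, against 4.68%. The members' median range was 2.03 and that of expressed genes 0.83. These 6 included Camp at 2.02 and Lyz2 at 2.03, close to the limit of 2. Without S23 none of the 9 reached 2, S100a8 coming closest at 1.98, against 4% of expressed genes. Without S20 3 did, against 3.52%, and without S10 4, against 1.961%. The count stayed at 6 with a pseudocount of 0.1, CPM or a common sum, against higher shares of 11.02%, 7.72% and 7.70%. With length correction or scaling without the globin rows S100a8 and Cxcr2 alone reached 2, against 3.20% and 8.32% of expressed genes, and under TMM scaling 5 members did, against 3.51%. The range of Ngp, 1.03, was close to the limit of 1 and fell under it with length correction, at 0.95.

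The highest value lay in S23 for 8 of the 9 members in the deposited FPKM (background 24.0%), for 7 under TMM scaling (16.01% of expressed genes) and median-ratio scaling (15.5%), and for 6 when FPKM were scaled without the globin rows (7.05%), where Ngp was highest in S21. The lowest value lay in S20 for 5 members (S100a8, S100a9, Camp, Lcn2 and Lyz2, background 17.1%), of which Lcn2 was lowest in S10 after scaling to a common sum, with or without the globin rows, and after length correction. These 5 were the members with both their highest value in S23 and their lowest in S20 (background 6.99%). The lowest value lay in S10 for 2 members (Csf3r and Cxcr2, background 60.1%), which is not more frequent than among expressed genes. The level of Ltf was too low for its highest and lowest library to be read. As the mean of the 9 members' deviations from their own medians, S23 stood at 0.77, S21 at 0.18, S13 at -0.02, S10 at -0.28, S12 at -0.37 and S20 at -0.65, a range of 1.42. With the globin rows left out of the scaling that range was 1.04, and without S23 it was 0.83.

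**Figure D2:**
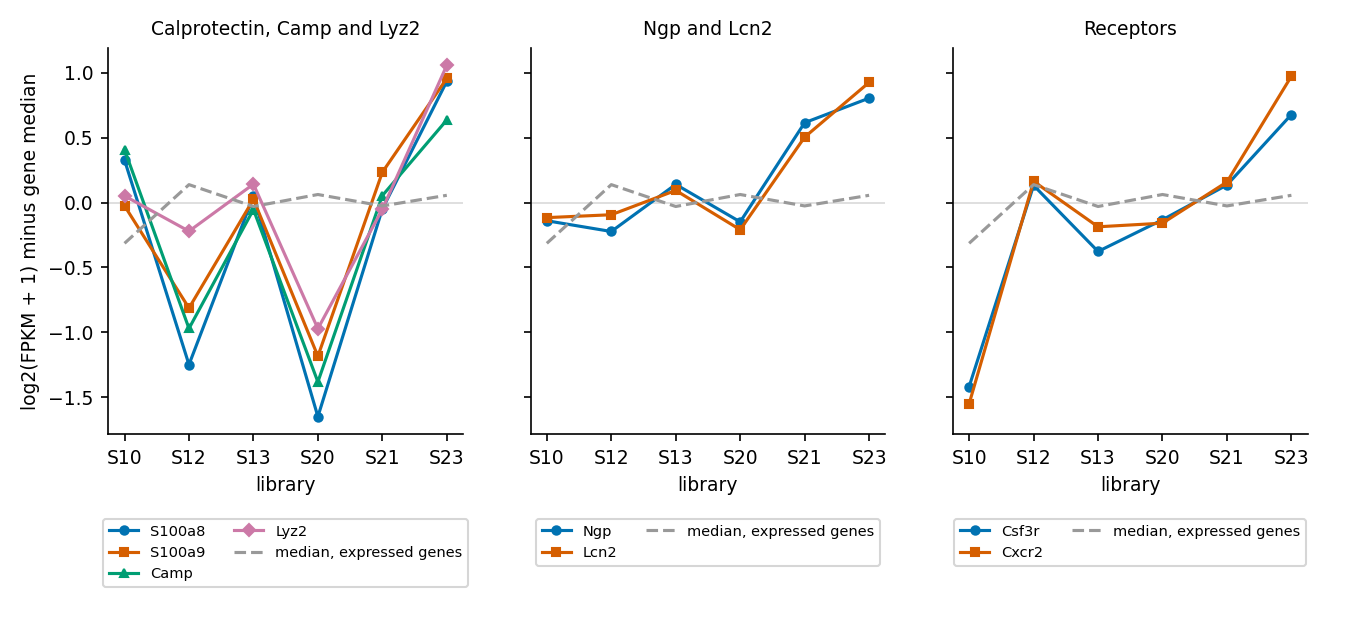
Deviation of each gene from its own median over the 6 libraries, on the log2(FPKM + 1) scale, in 3 panels, with the median of all expressed genes dashed; lines only join the values of a gene, since the libraries have no order. Calprotectin and Camp dip in S12 and S20, Ngp and Lcn2 lie close together and stand up in S21 and S23, and the receptors dip in S10, where Csf3r is at -1.42 and Cxcr2 at -1.55.

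S10 set the members apart from each other most clearly. There S100a8 stood at 1.25 times and Camp at 1.33 times their medians over the libraries, whereas Csf3r stood at 0.353 times and Cxcr2 at 0.322 times theirs. The ratio of S100a8 to Cxcr2 was 337 in S23, 302 in S21, 125 in S20, 414 in S13, 131 in S12 and 1356 in S10. This 10.9-fold span was the widest of the 28 pairs, and scaling of whole libraries leaves it as it is. It rested on S10, for without that library it was 3.31-fold, and the span of S100a8 to Csf3r, 3.87-fold, was wider.

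**Figure D3:**
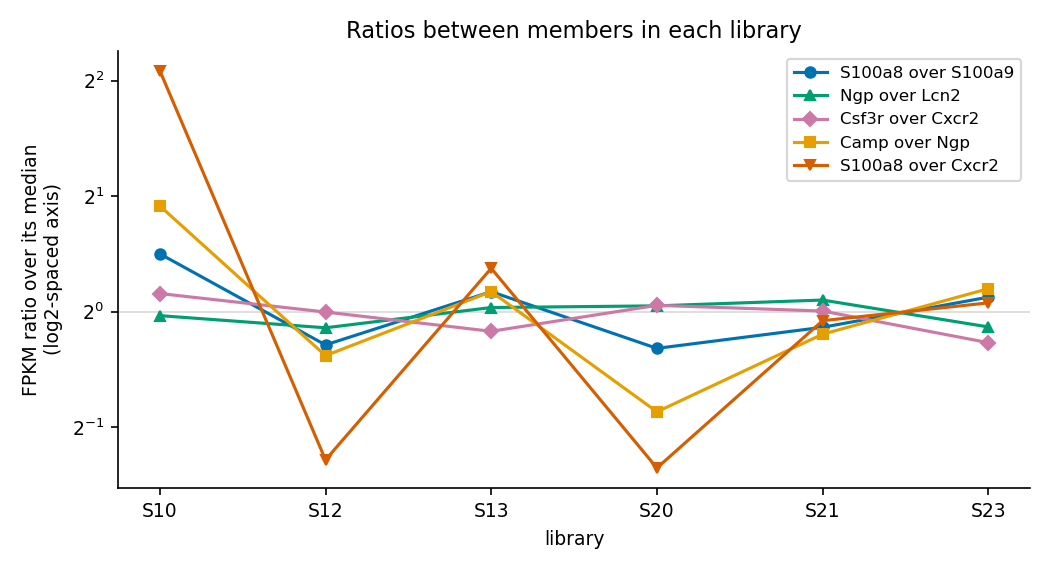
Ratio of FPKM between members in each library, divided by its median over the 6 libraries, on a log2-spaced axis. The ratio of Ngp to Lcn2 stays nearly flat, with a 1.18-fold span, while that of S100a8 to Cxcr2 is highest in S10 and lowest in S20, with a 10.9-fold span that is 3.31-fold without S10.

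Gene length moved with the difference between libraries. Among expressed genes of 150 to 544 bases, by the length that count and FPKM imply, the median deviation was 0.04 in S10 and -0.25 in S20, whereas among those of 4391 to 5034 bases it was -0.59 in S10 and 0.28 in S20. S100a8 (412 bases), S100a9 (577 bases) and Camp (813 bases) were short genes, and Csf3r (4475 bases) a long one. Cxcr2 (1441 bases) and Lyz2 (1300 bases) fell in the same length bin of 1288 to 1468 bases, whose median in S10 was -0.02, yet in S10 Cxcr2 was at -1.55 and Lyz2 at 0.05. With each bin's median removed, the range was 2.44 for Cxcr2, 2.18 for S100a8, 1.87 for Lyz2, 1.82 for S100a9, 1.70 for Camp, 1.46 for Csf3r, 1.06 for Lcn2 and 0.95 for Ngp. S23 remained the highest library of each of these 8 genes. The part of RNA quality in the length trend was not tested.

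**Figure D4:**
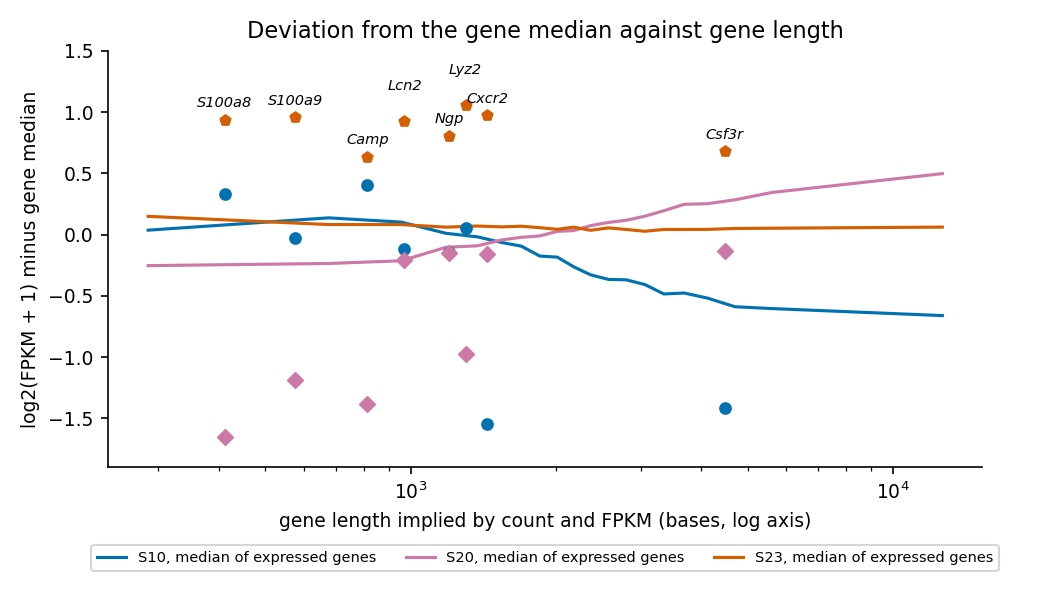
Deviation from the gene's own median on the log2(FPKM + 1) scale against implied gene length in bases on a log axis, for S10 (circles), S20 (diamonds) and S23 (pentagons); lines give the median of expressed genes in 20 length bins. The S10 line falls and the S20 line rises with length, the S23 points of the named genes stand above their line, and Cxcr2 and Csf3r in S10 lie under theirs.

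Earlier and related granule genes were read for comparison. Of 12 primary granule genes, 11 had a row and 10 reached a median of 1 FPKM. All 10 were highest in S23 in the deposited FPKM, against 24.0% of expressed genes. The count was 7 under TMM and median-ratio scaling (16.01% and 15.5% of expressed genes) and 9 when scaled without the globin rows (7.05%). The defensin genes Np4, Defa5 and RatNP-3b and the proteoglycan gene Srgn, which helps to pack granules, led the list with medians of 9183, 8080, 5665 and 2204 FPKM. Their ranges ran from 1.08 (Srgn) to 1.88 (Np4), and Np4 had 4616 FPKM in S12, 4686 in S20 and 17039 in S23. Of 23 other secondary and gelatinase granule and neutrophil membrane genes, 22 reached 1 FPKM. In the deposited FPKM 20 were highest in S23, against 24.0% of expressed genes. That count was 17 under TMM and median-ratio scaling and 15 when scaled without the globin rows, against the shares given for the primary granule genes. In S10, 12 of the 22 had their lowest value, against 60.1% of expressed genes. Under TMM scaling 7 did, and the share of expressed genes was not counted there. Retnlg, a resistin relative of neutrophils, had a median of 1107 FPKM and was highest in S10 at 1362 FPKM, or in S23 after scaling to a common sum. Fcnb, Hp and Mmp8, which encode a ficolin, haptoglobin and the neutrophil collagenase, followed with medians of 560, 457 and 373 FPKM, and each was highest in S23.

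The factors that act on granule genes were all expressed. Of the 10 on the list, 10 reached a median of 1 FPKM, 6 had a range of at least 1 (36.6% of expressed genes), and their median range was 1.06. The count of 6 was 4 under TMM scaling, 3 under median-ratio scaling and 4 when scaled without the globin rows, against 29.4%, 29.3% and 48.1% of expressed genes. It was 2 with length correction, against 19.8%, and 9 after scaling to a common sum, against 52.7%. In the deposited FPKM 8 were highest in S23, against 24.0% of expressed genes. That count was 6 under TMM scaling (16.01% of expressed genes) and 5 when scaled without the globin rows (7.05%), where Cebpe was highest in S21. Cebpe, the factor of secondary granule genes, ranged from 43.8 FPKM in S20 to 86.1 FPKM in S23, and Spi1 (PU.1) from 64.7 FPKM in S20 to 156 FPKM in S23. Cebpd had a median of 55.7 FPKM, Cebpa of 28.7 FPKM, Cebpb of 3.95 FPKM and Gfi1, a repressor needed for neutrophil maturation, of 11.7 FPKM. Irf8, which favours monocytes over neutrophils, had a median of 41.3 FPKM and Stat3, which acts under the G-CSF receptor, of 23.7 FPKM. Runx1 (9.92 FPKM) and Klf5 (5.32 FPKM) were highest in S20, although Klf5 was highest in S10 under TMM scaling.

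Among the ligands of the receptors, Ppbp was strongly read and the others were low. Csf3, which encodes G-CSF, had 0 counts in all 6 libraries, and Csf2 had at most 2 counts. Among the Cxcr2 ligands, Cxcl1 had 161 counts (3.36 FPKM) at its highest, in S23, and a median of 0.267 FPKM, Cxcl2 had at most 37 counts and Cxcl3 at most 30, also in S23, and Cxcl6 had a median of 1.10 FPKM. Ppbp, the gene of a Cxcr2 ligand that platelets and megakaryocytes make, had 225 to 271 FPKM, above the level of Cxcr2 in every library. Cxcl12, the signal that holds neutrophils in the marrow, had its lowest level, 103 FPKM, in S23 and its highest, 225 FPKM, in S12, although the lowest was in S10 after scaling to a common sum and the highest in S10 after length correction. Its receptor Cxcr4 had 160 FPKM in S23, its highest, and 91.1 FPKM in S20, its lowest, although the highest was in S10 under TMM and median-ratio scaling and in S13 when scaled without the globin rows. Cxcr1, the sister receptor of Cxcr2, had at most 4 counts. Of the cytokines that raise calprotectin or lipocalin 2 in other settings, Il1b had a median of 14.5 FPKM. Its highest value was 28.3 FPKM, in S23. Tnf was lower, at a median of 0.472 FPKM and 30 to 74 counts per library. In the deposited FPKM it was highest in S20 (0.978 FPKM, 74 counts) and lowest in S23 (0.351 FPKM, 31 counts). S10 was close to S23, with 0.404 FPKM and 30 counts, so the lowest library of Tnf is uncertain. Il17a had at most 2 counts. Il6 had 115 counts (2.11 FPKM) in S23 and 0 to 13 counts in the other libraries. S23 was also the library in which most members were highest, and the part of these cytokines in that was not tested.

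Levels of the receptor genes for the secreted proteins differed widely, from medians under 1 FPKM to 313 FPKM. Of 14 on the list, 12 had a row (Ly96 and Cd36 did not) and 9 reached a median of 1 FPKM. Tlr4, a calprotectin receptor, had a median of 2.99 FPKM, its co-receptor gene Cd14 10.4 FPKM, the adaptor Myd88 26.6 FPKM and Ager, which encodes RAGE, 1.88 FPKM. Emb and Bsg, read as candidate receptor genes for S100 proteins, had medians of 313 and 143 FPKM. The lipocalin 2 receptor genes Slc22a17 and Lrp2 had medians of 1.97 and 0.0298 FPKM, and the cathelicidin and lactoferrin receptor candidates Fpr2, Lrp1, P2rx7 and Egfr had 12.7, 5.67, 0.0610 and 0.281 FPKM.

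Marker lists of other cells were read in the same libraries. Of expressed genes, 24.0% were highest in S23, or 16.01% under TMM scaling. The lists are short, and a count of 0 or 1 in them is not clearly below these shares. In the deposited FPKM, 1 of 10 monocyte and macrophage genes was highest in S23 (Cd68, or S12 when scaled without the globin rows), and C1qa, C1qb and C1qc, the complement genes of tissue macrophages, were lowest there, with medians of 169, 98.3 and 120 FPKM. The summed level of that list ran from 488 FPKM in S20 to 748 FPKM in S12. None of 6 eosinophil genes was highest in S23, and their summed level was 119 FPKM in S20 and 2147 to 5318 FPKM in the other libraries, with Prg2 and Prg3 at medians of 1892 and 416 FPKM. Of 6 basophil and mast cell genes 4 were highest in S23, or 1 under TMM scaling, among them Prss34, singled out after its values were seen, with 110 FPKM in S23 and a median of 5.43 FPKM. None of 9 erythroid genes was highest in S23, and 7, the globin genes Hba-a1, Hba-a2 and Hbb among them, were lowest there (8.37% of expressed genes), or 5 after scaling to a common sum. Of osteoblast genes 1 of 10 and of proliferation genes 0 of 7 were highest in S23. The same count was 0 of 7 for B cell, 1 of 7 for T and NK cell, 0 of 6 for megakaryocyte, 3 of 4 for osteoclast (0 under TMM scaling), 0 of 5 for muscle and 0 of 5 for adipocyte genes above 1 FPKM. The keratin genes Krt5, Krt14 and Krt18, read because epithelium can make calprotectin and lipocalin 2, had at most 6 counts in any library, and Epcam had 7 to 19 counts. Cdh1, the gene of E-cadherin and the only one of the 5 epithelial genes above 1 FPKM, had a median of 14.2 FPKM, with its highest level, 23.3 FPKM, in S20 (S10 after length correction) and its lowest, 10.2 FPKM, in S23. In bulk tissue, fewer cells of a type and less RNA per cell cannot be told apart.

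**Figure D5:**
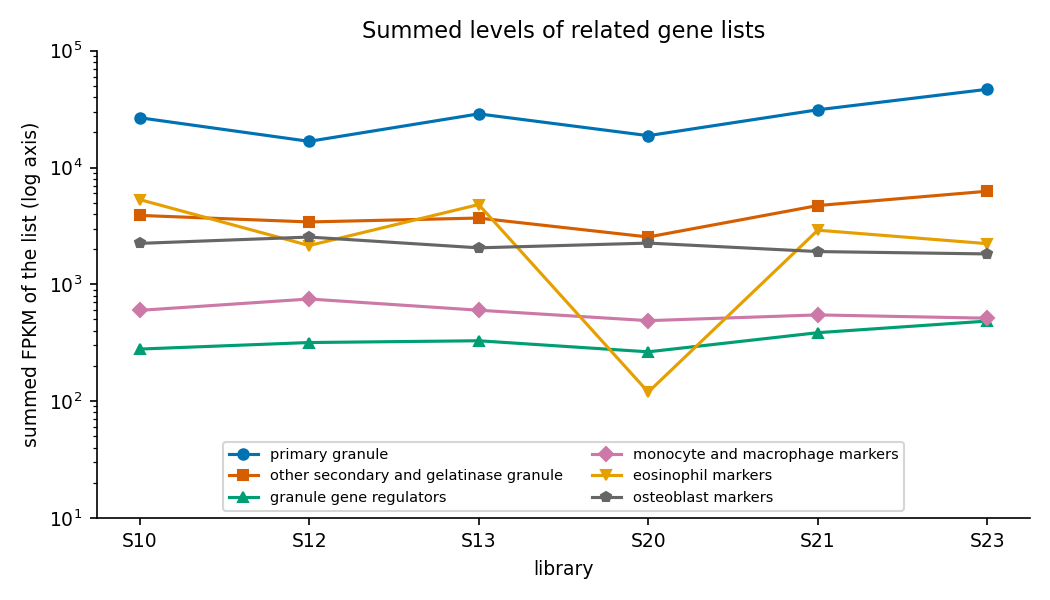
Summed FPKM of 6 gene lists in each library on a log axis; lines only join the values of a list. The primary granule list is lowest in S12 at 16754 FPKM and highest in S23 at 46772 FPKM, the other secondary and gelatinase list from 2541 FPKM in S20 to 6266 FPKM in S23, and the eosinophil list drops to 119 FPKM in S20.

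Genes other than the members with the profile most like the mean of the 9 members were sought by the root mean square difference of centred log2(FPKM + 1) over the 6 libraries, among 11617 expressed genes. That mean includes Ltf, whose deviations ran from -0.03 to 0.01, and the search was not repeated without Ltf. It also joins unlike profiles, such as Camp at 0.41 and Cxcr2 at -1.55 in S10. The nearest were Tnfsf13 (difference 0.12), Arpc1b (0.13), Tspo (0.13), Anxa1 (0.13), Aqp9 (0.13), Trem3 (0.13), Cd300a (0.14), Tmem242 (0.14), Fcgr1a (0.14) and Plaur (0.15), against a median difference of 0.53 over all candidates. Each was highest in S23 and lowest in S20, except that Arpc1b and Plaur were lowest in S10 after scaling to a common sum. Anxa1, the gene of annexin A1, was the strongest of them, with 2127 FPKM in S23, 1502 in S21, 754 in S20, 1250 in S13, 989 in S12 and 1096 in S10. The list depended on the scaling, and 3 of the 10 remained under TMM scaling, median-ratio scaling or length correction.

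Searched gene by gene, in the deposited FPKM only, S100a6 was the nearest to S100a8 (difference 0.20) and also to Camp (0.17). Under TMM scaling S100a6 and Camp were highest in S10, whereas S100a8 stayed highest in S23. Np4 was the nearest to S100a9 (0.15), Lsp1, a leukocyte actin-binding protein gene, to Ngp (0.08), Mogat2 to Lcn2 (0.06) and Serpinb1a, which encodes an inhibitor of neutrophil proteases, to Lyz2 (0.15). The nearest to Csf3r was AABR07034445.1 (0.10) and to Cxcr2 RGD1304884 (0.13), which carry only systematic names. Mogat2 had a median of 1.35 FPKM, against 898 FPKM for Lcn2. At so low a level log2(FPKM + 1) understates folds, and the difference of 0.06 does not mean equal folds. Mogat2 was lowest at 1.06 FPKM (S12) and highest at 3.43 FPKM (S23). Lcn2, lowest in another library (S20), had a narrower fold, its highest value being 2.20 times its lowest.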

How the data were processed

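For each of 6 libraries the table gives 2 columns. One holds the authors' raw counts, whole and unnormalized. The other holds FPKM that the authors derived, per the file headers, and whose sums differ between libraries. The submitters' processing notes list the mouse builds GRCm38 and mm10, although row IDs are Ensembl IDs of the rat. The sources used here name neither aligner nor counting tool. Of 30610 rows, 10 held no values.

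All libraries stayed unassigned, so values are descriptive and no test was run. Log values are log2(FPKM + 1), which understates folds of low genes. Named genes are the 9 members, every regulator, ligand and receptor listed, up to 4 of the other lists by median FPKM, and the nearest profiles. Other genes were named after their values were seen. Members, lists and measures were chosen with earlier results of these data known. A profile search and the length correction were tested on simulated data. The planted genes there all shared the same profile, so that test does not cover a mean of unlike profiles such as the members'. Factors came from edgeR 4.0.16, the rest from Python 3.11.15. Alternatives were a pseudocount of 0.1, TMM, median-ratio and common-sum scaling, CPM, length correction in 20 bins, other minimums and leaving out each library.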

Additional observations from a re-analysis of the deposited data

How the results depend on the processing

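The range of the members' mean deviation, 1.42 in the deposited values, was 1.47 with TMM scaling, 1.46 with median-ratio scaling, 1.45 with CPM, 1.25 with length correction, 1.04 with scaling to a common sum without globin rows and 1.60 without Ltf, an alternative chosen after seeing the data. Leaving out each library gave 0.83 (without S23) to 1.42. S23 was the highest and S20 the lowest library in each scaling. Leaving out a library gave 6 to 8 members with a range of at least 1, 8 members highest in S23 (no value without S23 itself), and a span of 1.41 (without S10) to 1.76 in the ratio of S100a8 to S100a9. With scaling without globin rows 6 members had a range of at least 1, Ngp and Lcn2 being lost, against 48.1% of expressed genes. Of the 10 nearest genes 3 remained with TMM scaling, 3 with median-ratio scaling, 4 with a common sum, 6 without globin rows, 3 with length correction and 1 to 5 without a library; the cause was not tested. The share of expressed genes with a range of at least 1, 36.6% in the deposited values, was 25.8% with no minimum, 34.6% at 5 FPKM, 52.7% with a common sum, 29.4% with TMM scaling, 43.5% with CPM, 48.6% with a pseudocount of 0.1, 19.8% with length correction and 13.6% (without S10) to 36.2% with a library left out. The members' count with a range of at least 2 and the folds without a library were added after seeing the data. Depth limits the reading of Ltf and of several ligand genes. No paired analysis was possible because the labels give no groups.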
